A study of Mus musculus with 7 samples.

Results

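The Ly6 and uPAR family comprises small cell-surface and secreted proteins built from the LU domain, a three-finger fold held together by disulfide bonds. Most members are tethered to the outer leaflet of the plasma membrane by a glycosylphosphatidylinositol (GPI) anchor and act in adhesion, in proteolysis at the cell surface, in complement control or as modulators of acetylcholine receptors. In stratified epithelia several of them mark the layers above the basal layer. The genes described here were Psca, Plaur, Ly6a, Ly6d, Ly6e, Lypd3, Slurp1 and Cd59a, and each was represented by every probe set that the platform annotation pairs with that single gene symbol. Of these 8 genes 6 had such a probe set, 7 probe sets in all, among 12393 genes measured. Ly6a and Ly6e had none and were not analysed here.

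The cells were mouse primary keratinocytes, the epithelial cells of the epidermis, collected 48 h after transient transfection with small interfering RNA (siRNA). There were 5 arrays of cells given siRNA against Trp63 (replicates 1, 2, 3, 4 and 7) and 2 arrays of cells given non-specific control siRNA (replicates 5 and 6). Trp63 encodes p63, a p53-family transcription factor of stratified epithelia, and the comparison asks what its silencing does to these genes. The labels name neither strain nor age and leave unsaid whether each replicate was its own culture, so the p-values reflect spread among these arrays only and that spread may be technical. In bulk RNA, fewer cells of a type and less RNA per cell cannot be told apart.

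Values are intensities on a linear scale, 1 per probe set and array. Differences are Trp63 siRNA minus control siRNA on the log2(intensity + 16) scale, with a 95% interval where one is given, and a gene rose or fell where limma's p, adjusted over all 22626 probe sets, was below 0.05. The brightest Trp63 probe set read 457 to 541 on the silenced arrays against 1447 and 1683 on the control arrays. The other Trp63 probe sets were dimmer and fell less. Their silenced and control means were 163 against 235 (log2 difference -0.49) and 139 against 209 (log2 difference -0.54). Krt14 and Krt5, the keratins of the basal layer, read 14825 and 11602 on average in silenced cells, far above the array medians of 208 to 215, as the labelled cell type calls for. All 9 keratinocyte markers measured fell, with summed intensities of 46676 to 50691 in silenced against 63058 to 66334 in control arrays. Summed immune markers (15 genes) lay at 2238 to 2494 against 2338 to 2434, with Csf1r and Cd3e the brightest, endothelial markers (10 genes, Egfl7 and Emcn the brightest) at 1384 to 1471 against 1442 to 1557, and fibroblast markers (13 genes, Col5a2 and Col6a2 the brightest) at 2464 to 2586 against 1971 to 2276. Of these lists 1 immune marker rose and 1 fell, no endothelial marker passed limma's test (1 lower at an unadjusted p below 0.05), and 2 fibroblast markers rose. The shares over all 12393 genes were 8.03% higher and 8.56% lower. Melanocyte markers did not separate the treatments but divided the arrays, as described below.

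Silencing of Trp63 was accompanied by changes in both directions within the family. Psca, Plaur and Slurp1 rose, Lypd3 and Cd59a fell, and Ly6d did not pass. Of the 6 genes measured 3 were thus higher and 2 lower, where 16.6% of all 12393 genes passed in either direction, 8.03% higher and 8.56% lower. By probe set, 3 of 7 were higher and 3 lower, beside 7.83% and 8.16% of all 22626. These genes were chosen with earlier results of these data known, so no share here measures how unusual the family is. The silenced and control values did not overlap at 6 of the 7 probe sets, 3 above the controls and 3 below, where 36.6% of all probe sets did not overlap, 14.2% above and 22.4% below.

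**Figure D1:**
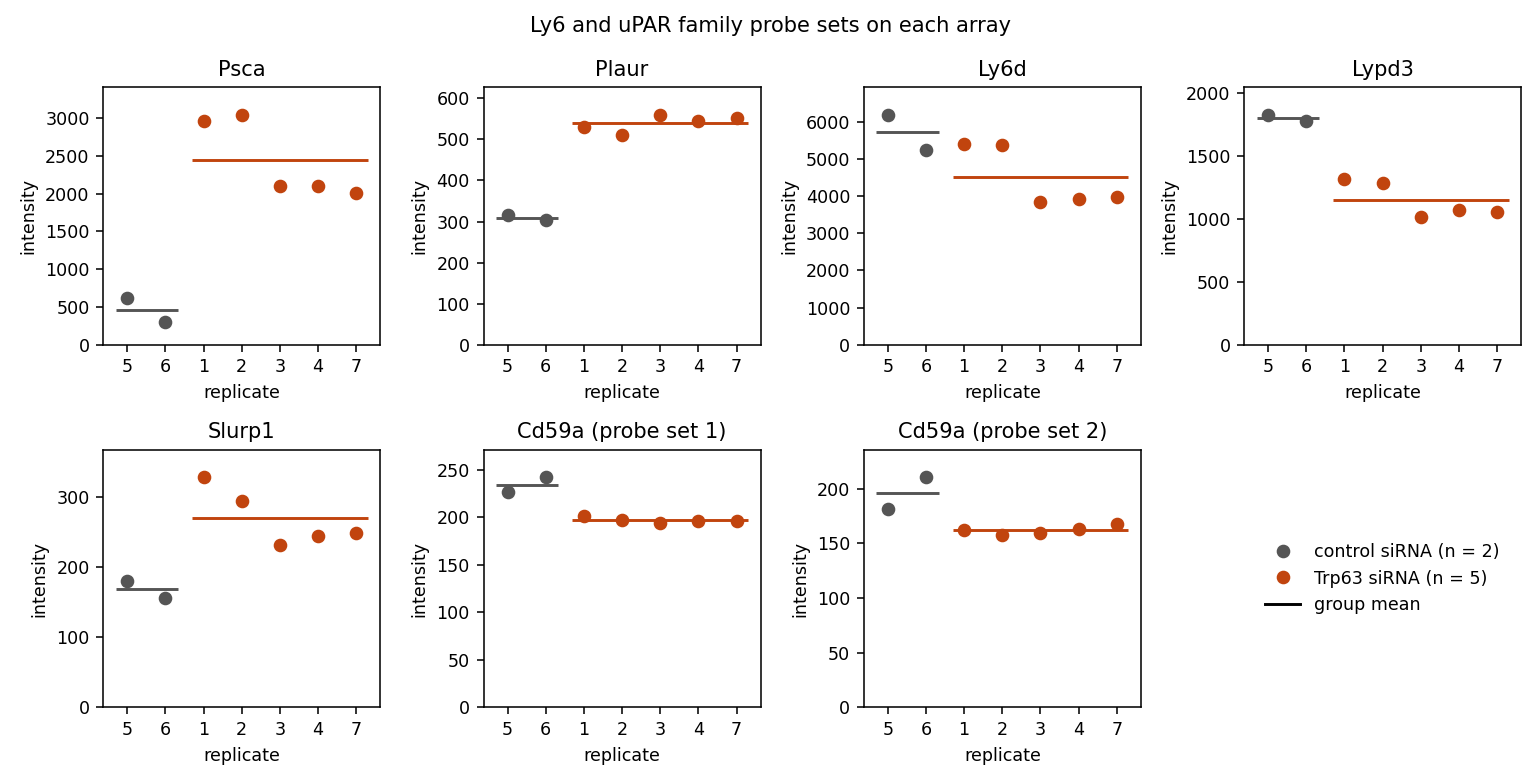
Intensity of each of the 7 probe sets (linear axis from 0) on the 2 control siRNA arrays (grey, replicates 5 and 6) and the 5 Trp63 siRNA arrays (orange, replicates 1, 2, 3, 4 and 7), with lines at the group means. Psca, Plaur and Slurp1 lie above both controls in every silenced array, Lypd3 and both Cd59a probe sets lie below them, and Ly6d overlaps.

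Psca, prostate stem cell antigen, is a GPI-anchored surface protein first described in prostate and also made by other epithelia. Its probe set read 2957, 3041, 2099, 2105 and 2005 on silenced arrays 1, 2, 3, 4 and 7, beside 613 and 299 on control arrays 5 and 6. The lowest silenced value was far above the higher control value, although control replicate 5 was itself well above control replicate 6. The mean was 2441 ± 511 (SD, n = 5) against 456 ± 222 (SD, n = 2), a 5.43-fold rise (log2 difference 2.44, interval 1.85 to 3.03, limma adjusted p = 0.000368). With either control left out the difference was 1.94 or 2.94, and the call held in both cases. It was the only one of the 6 genes with a log2 difference above 1.

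Plaur encodes the urokinase receptor, which holds the protease urokinase at the cell surface and is a hallmark of keratinocytes at wound edges. Its probe set read 531, 511, 560, 545 and 551 on the silenced arrays in the same order and 315 and 304 in the controls. The values of each group were tightly grouped and far apart from the other group. The rise was 1.71-fold (log2 difference 0.77, interval 0.62 to 0.92, limma adjusted p = 0.000111), and under the alternative settings the difference stayed between 0.69 and 0.80. Plaur had the smallest p of the 6 genes despite a far smaller change than Psca.

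Slurp1 encodes a secreted LU protein of the upper epidermis that binds nicotinic acetylcholine receptors, and its loss in humans causes a thickening of the skin of palms and soles. Its probe set read 327, 294, 232, 244 and 248 in the silenced replicates in the same order and 180 and 156 in the controls. The control values lay below the array medians, so the fold may be understated. Slurp1 rose 1.54-fold (log2 difference 0.62, interval 0.34 to 0.91, limma adjusted p = 0.0101). The call was lost without control replicate 6 (limma adjusted p = 0.115).

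Lypd3 encodes C4.4A, a GPI-anchored structural relative of the urokinase receptor found on suprabasal keratinocytes. Its probe set read 1320, 1289, 1014, 1073 and 1054 in the silenced replicates and 1827 and 1778 in the controls. All silenced values were below both controls, which differed by only 0.04 on the log2 scale. With control replicate 5 or 6 left out the difference was -0.63 or -0.67, each resting on 1 control. In both cases the limma adjusted p moved close to the threshold. Lypd3 fell 1.57-fold (log2 difference -0.65, interval -0.90 to -0.40, limma adjusted p = 0.00438). With the level of the bacterial spike transcripts as a covariate the difference stayed at -0.58 and the adjusted p lay just above the threshold (limma adjusted p = 0.0509). The mean log2 level of these spikes was 8.73 and 8.75 on the control arrays and 8.75 to 9.05 on the silenced arrays.

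Cd59a encodes a GPI-anchored inhibitor of the membrane attack complex of complement. Its first probe set read 201, 197, 194, 196 and 196 in the silenced replicates and 227 and 242 in the controls. Its second probe set read 162, 158, 160, 163 and 167 against 182 and 210. Both showed a small decrease with no overlap between the groups. The log2 differences were -0.23 (interval -0.35 to -0.12, limma adjusted p = 0.0142) and -0.25 (interval -0.38 to -0.11, limma adjusted p = 0.0208). Without control replicate 6 both calls were lost and the differences were smaller, -0.19 and -0.15 (limma adjusted p = 0.131 and 0.184). With the spike covariate both calls were lost while the differences stayed at -0.22 and -0.25 (limma adjusted p = 0.0874 and 0.105). The silenced values of both probe sets lay below the array medians, as did the control values of the second.

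Ly6d encodes a GPI-anchored keratinocyte surface antigen linked to adhesion between these cells. Its probe set was at the 98.4th percentile of mean level among all probe sets. It read 5396, 5365, 3832, 3933 and 3966 in the silenced replicates and 6183 and 5239 in the controls. Silenced replicates 1 and 2 lay between the controls, and replicates 3, 4 and 7 lay below both. The log2 difference was -0.36 (interval -0.70 to -0.02), which did not pass (limma adjusted p = 0.148). Leaving out control replicate 5 moved the difference to -0.24 (limma adjusted p = 0.568). Leaving out control replicate 6 moved it to -0.48 (limma adjusted p = 0.206).

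The spread among the silenced arrays differed between the 6 genes. In Psca, Ly6d, Lypd3 and Slurp1, silenced replicates 1 and 2 were brighter than replicates 3, 4 and 7, by 1.45-fold, 1.37-fold, 1.24-fold and 1.27-fold. The first Cd59a probe set had the same order, with a difference of only 1.02-fold, and the second did not. The SD of the 5 log2 values was 0.29 for Psca, 0.25 for Ly6d, 0.17 for Lypd3 and 0.20 for Slurp1, each at or above the 90.3rd percentile of all probe sets, whose median SD was 0.07. Plaur and Cd59a varied little. Their SD was 0.05 for Plaur (28.2nd percentile) and 0.02 and 0.03 for Cd59a (1.50th and 6.73rd percentiles). These percentiles are not matched for mean level, which itself lay at the 49.1st and 42.2nd percentiles for Cd59a. Mean level was at the 53.3rd percentile for Slurp1, the 72.4th for Plaur and the 90.2nd to 98.4th for Lypd3, Psca and Ly6d. Plaur was slightly lower, not higher, in replicates 1 and 2, by 0.08 on the log2 scale. Replicates 1 and 2 both exceeded replicates 3, 4 and 7 at 23.2% of all probe sets and were both below them at 17.7%, so the order itself was common on these arrays whatever its size.

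**Figure D2:**
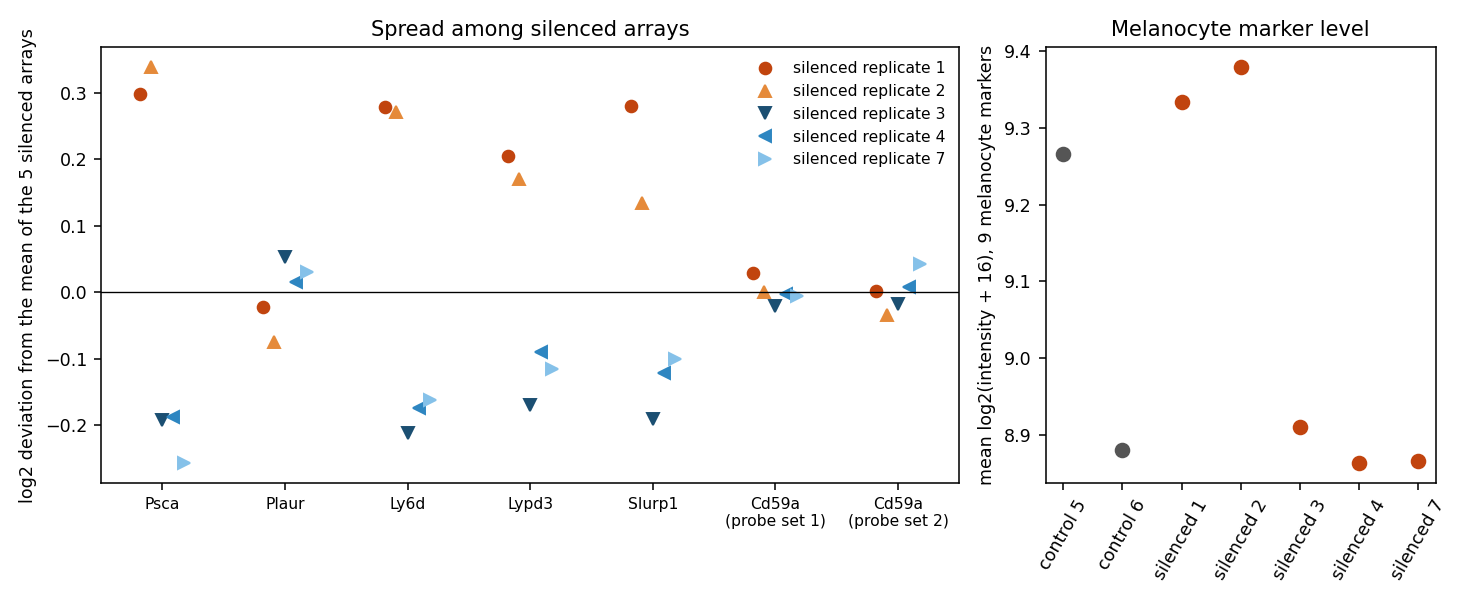
Left, log2 deviation of each silenced array from the mean of the 5 silenced arrays, for the 7 probe sets. Right, mean log2(intensity + 16) of 9 melanocyte markers on each of the 7 arrays. Silenced replicates 1 and 2 lie above the others in Psca, Ly6d, Lypd3 and Slurp1 and have the highest melanocyte marker level (9.33 and 9.38).

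Melanocyte markers divided the arrays in the same way. Their mean log2 level was 9.33 and 9.38 in silenced replicates 1 and 2 and 9.27 in control replicate 5, whereas silenced replicates 3, 4 and 7 lay at 8.86 to 8.91 and control replicate 6 at 8.88. Dct and Pmel, pigment cell genes and the brightest of the list, read 3136 and 2127 on average in silenced cells. None of the 9 markers passed limma's test between treatments, and none had an unadjusted p below 0.05. Within the arrays of higher melanocyte level, Psca differed by 2.26 between silenced and control cells, and within those of lower level by 2.73. The corresponding values were -0.20 and -0.42 for Ly6d, -0.48 and -0.76 for Lypd3, 0.74 and 0.58 for Slurp1, 0.70 and 0.83 for Plaur, and -0.18 and -0.29 for the first and -0.17 and -0.34 for the second Cd59a probe set. Each comparison within a level rests on 1 control array and has no test of its own.

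The direction of each of these genes was the same at both levels. Psca read 613 in control replicate 5 against 299 in control replicate 6, and replicate 5 exceeded replicate 6 by 0.24 on the log2 scale in Ly6d, 0.19 in Slurp1, 0.05 in Plaur and 0.04 in Lypd3, while both Cd59a probe sets were lower in it, by 0.09 and 0.20. With the split as a term in the fit, a setting chosen after seeing the data, Ly6d was also called lower (log2 difference -0.32, limma adjusted p = 0.00116). It was called lower too with the melanocyte marker level as a covariate (-0.35, limma adjusted p = 0.000336). The split was drawn from that level, so these fits are not separate results. Calls over all probe sets also grew, from 1771 higher and 1847 lower to 2563 and 2895 with the split. The labels give no batch, and what sets the arrays apart was not tested.

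Of 35 other family genes listed 13 were measured, of which none rose (2 at an unadjusted p below 0.05) and 1 fell by limma's test, beside 8.03% and 8.56% of all genes. With the melanocyte level or split in the fit, 2 rose and 2 fell. Calls over all 22626 probe sets also grew in these fits, from 1771 higher and 1847 lower. They reached 2541 and 2874 with the level, and 2563 and 2895 with the split. In the main fit the median log2 difference of the 13 genes was -0.04, beside -0.04 for all genes. Pinlyp, which encodes a secreted LU protein named as a phospholipase A2 inhibitor, fell 2.11-fold, from 604 and 448 in the controls to 289, 238, 207, 232 and 232 on the silenced arrays (log2 difference -1.08, SE 0.13, limma adjusted p = 0.000831). No silenced value came near a control value. The call held under every alternative setting run.

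Ly6g6c, an LU gene named here after its values were seen, showed the replicate pattern of Psca more strongly. It read 756, 770, 405, 423 and 449 in the silenced replicates and 419 and 196 in control replicates 5 and 6. The groups overlapped and the difference did not pass (log2 difference 0.87, interval 0.13 to 1.61, limma adjusted p = 0.110). Silenced replicates 1 and 2 were 1.76-fold brighter than the other silenced arrays, and control replicate 5 was 1.04 above replicate 6 on the log2 scale. With the melanocyte split as a term, Ly6g6c was called higher (0.96, limma adjusted p = 2.1e-05). Lynx1, a membrane-bound modulator of nicotinic receptors, differed by 0.28 and did not pass (limma adjusted p = 0.125). The other measured genes, among them Ly6h, Ly6i, Ly6f, Ly6m, Tex101, Cd177 and Lypd1, differed by 0.15 or less in either direction on the log2 scale, at intensities mostly below the array medians.

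**Figure D3:**
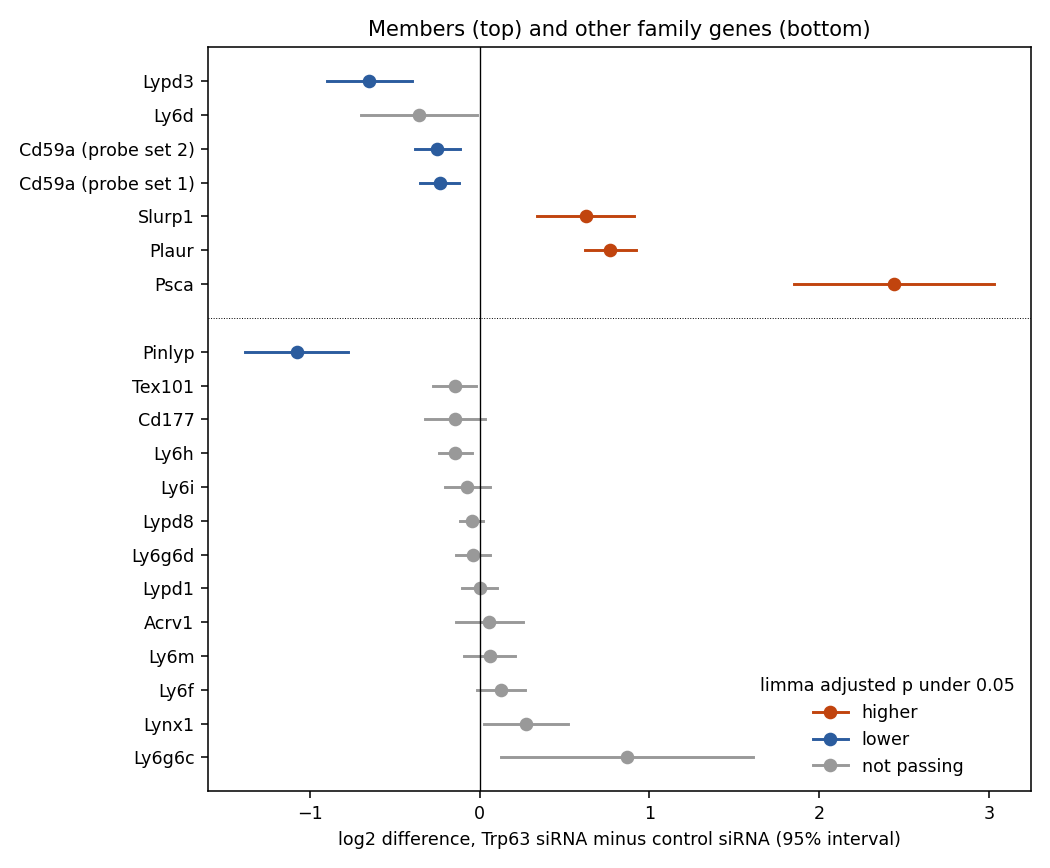
Log2 difference between Trp63 siRNA and control siRNA with its 95% interval for the 7 probe sets of the 6 genes (above the dotted line) and for 13 other Ly6 and uPAR family genes (below it), coloured by limma's call. Psca has the largest difference (2.44), and of the other family genes Pinlyp alone passes (-1.08).

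Most LU genes lie in clusters, and the order of genes in the GRCm38.p6 RefSeq table was used to see what their neighbours did. Psca, Slurp1 and Ly6d stand in a run of 29 protein-coding genes on chromosome 15 that also holds Lynx1 and the Ly6 genes of blood cells. Of 10 genes of this run that were measured, Psca and Slurp1 rose, none fell by limma's test (2 lower at an unadjusted p below 0.05) and 8 did not pass. Both stand at the same end of the run, with Lynx1 and Ly6d next to them among measured genes. Plaur and Lypd3 stand in a run of 21 genes on chromosome 7, of which 11 were measured. There Plaur and Cadm4, which encodes a cell adhesion protein of the immunoglobulin superfamily, rose, Pinlyp and Lypd3 fell, and 7 did not pass. Over all genes 8.03% rose and 8.56% fell. Both runs were taken because they hold genes described here, so their counts include the calls of those genes. Cadm4, the neighbour of Plaur, read 767 ± 35.6 (SD, n = 5) against 365 ± 36.9 (SD, n = 2), a log2 difference of 1.04 (limma adjusted p = 6.2e-05). Zfp428 and Xrcc1, which flank Pinlyp among the measured genes, differed by 0.08 and -0.05 and did not pass.

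**Figure D4:**
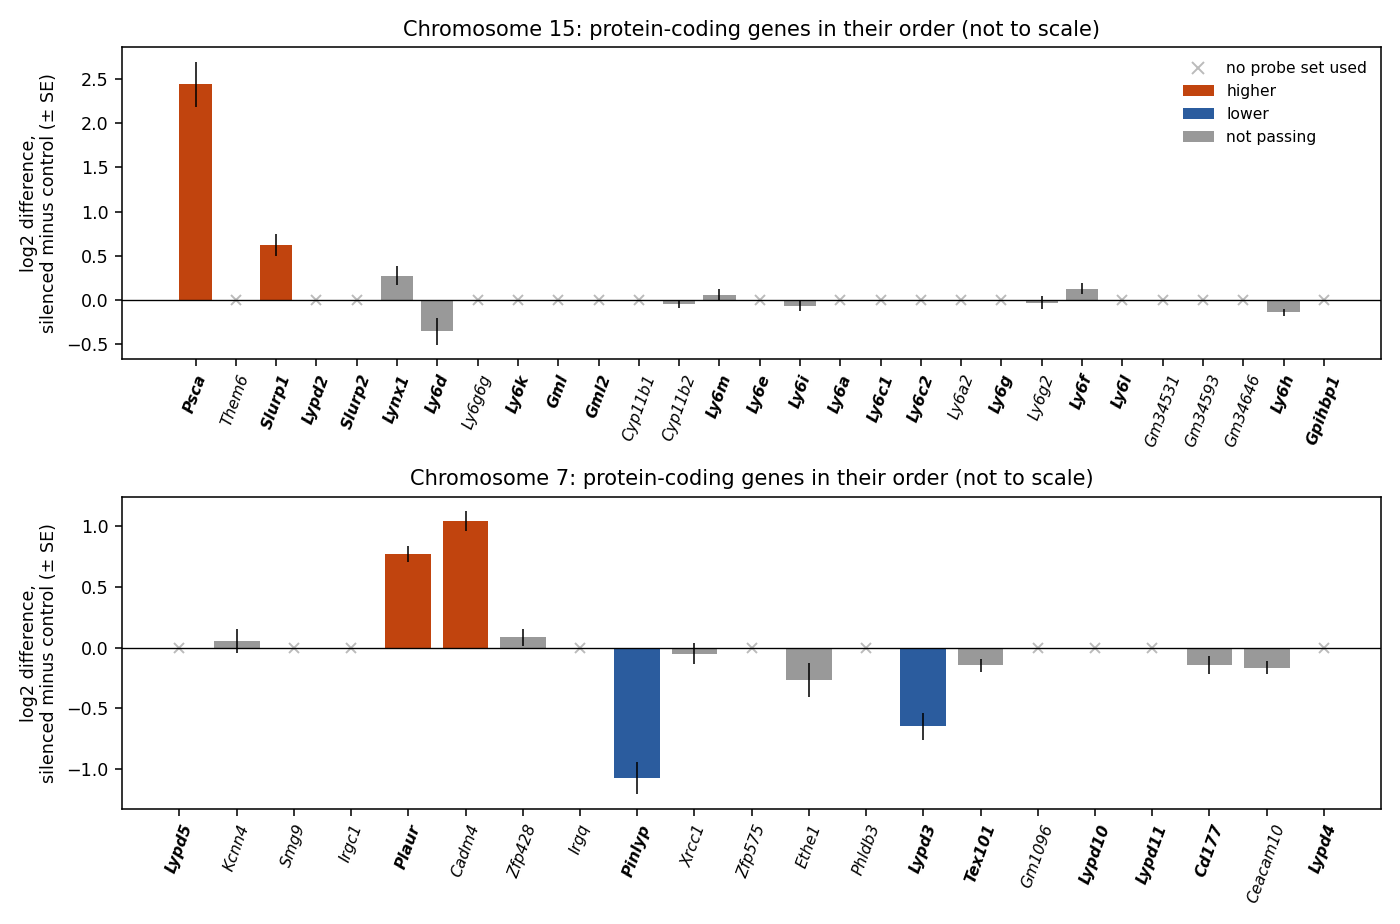
Log2 difference (bars, ± SE) of the protein-coding genes in their order along the Ly6 run of chromosome 15 and the Plaur and Lypd3 run of chromosome 7, drawn at equal spacing. Bold names are family genes of the lists used, crosses mark genes without a probe set used here; Psca (2.44) and Slurp1 (0.62) rise at one end of the first run, and in the second Plaur (0.77) and Cadm4 (1.04) rise while Pinlyp (-1.08) and Lypd3 (-0.65) fall.

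The 250 bases upstream of the start of Plaur, Pinlyp and Lypd3 are shown because these 3 family genes of one chromosome 7 run changed in opposite directions. The sequences are from RefSeq (GRCm38.p6), which gave a promoter for 3 of the 8 genes (Plaur, Lypd3 and Cd59a), and capitals mark the motif TGANTCA, the AP-1 site, searched on both strands. Plaur (rose) is chr7:24462233-24462482 on the plus strand, Pinlyp (fell) chr7:24546006-24546255 on the minus strand and Lypd3 (fell) chr7:24636320-24636569 on the plus strand.
Plaur: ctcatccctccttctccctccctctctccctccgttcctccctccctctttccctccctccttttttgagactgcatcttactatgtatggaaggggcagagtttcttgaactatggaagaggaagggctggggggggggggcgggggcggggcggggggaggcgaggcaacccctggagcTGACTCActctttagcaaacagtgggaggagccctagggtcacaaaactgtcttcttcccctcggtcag
Pinlyp: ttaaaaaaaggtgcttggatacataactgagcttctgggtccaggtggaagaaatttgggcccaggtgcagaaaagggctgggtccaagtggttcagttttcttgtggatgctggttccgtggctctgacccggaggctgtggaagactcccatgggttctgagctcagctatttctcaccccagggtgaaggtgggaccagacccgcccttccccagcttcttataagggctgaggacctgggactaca
Lypd3: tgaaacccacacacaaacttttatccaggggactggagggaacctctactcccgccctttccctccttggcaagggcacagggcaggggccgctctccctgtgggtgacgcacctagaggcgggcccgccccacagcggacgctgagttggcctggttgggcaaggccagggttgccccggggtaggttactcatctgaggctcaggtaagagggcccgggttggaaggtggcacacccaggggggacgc

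The Plaur window held 1 match, TGACTCA, which starts 69 bases before the transcript start. The Pinlyp, Lypd3 and Cd59a windows held no match. Of 32851 windows of this length 6.75% held the motif. The motif reads the same on either strand. A match is a description of letters and says nothing of a factor's binding.

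Of 14 measured genes of the urokinase system, in which Plaur is the receptor, 3 fell and none rose by limma's test (1, Plau, at an unadjusted p below 0.05), beside 8.56% and 8.03% of all genes, with a median of -0.04. Plau, which encodes urokinase itself, read 189 ± 25.5 (SD, n = 5) against 146 ± 8.91 (SD, n = 2) with every silenced value above both controls, and did not pass (log2 difference 0.34, limma adjusted p = 0.0747). Serpinb2, a urokinase inhibitor, read 3972 ± 540 (SD, n = 5) against 3767 ± 133 (SD, n = 2), which also did not pass. Egfr (-0.34), the clearance receptor gene Lrp1 (-0.24) and the dim Plg (-0.18), which encodes plasminogen, fell. All 3 calls ended on leaving out either control. Under 6 alternative settings 1 gene of the list was called higher. These include the same fit read at each gene's probe set of smallest p instead of its brightest. There a dimmer probe set of 1 listed gene rose.

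Among the partners of C4.4A and SLURP1, 1 of 10 measured genes rose and 2 fell, beside 8.03% and 8.56% of all genes. Lgals3, which encodes the C4.4A-binding lectin galectin-3, rose 1.33-fold (11606 against 8721, limma adjusted p = 0.000358). Lamb3 and Lama3, chains of the basement membrane laminin of the epidermis, fell 1.78-fold (limma adjusted p = 0.00211) and 1.46-fold (limma adjusted p = 0.0387). The Lama3 call ended on leaving out control replicate 6 (limma adjusted p = 0.307), as it did on leaving out silenced replicate 2, 3 or 4. No nicotinic receptor subunit gene measured passed the test (1, Chrnb4, was lower at an unadjusted p below 0.05). Chrnb4 and Chrna3, those with the smallest p, read 233 against 272 and 212 against 196.

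Of 20 measured genes that make and attach the GPI anchor 3 rose and 3 fell, beside 8.03% and 8.56% of all genes, and the median of the list was -0.02. Piga, the catalytic subunit gene of the first step of anchor synthesis, fell 1.52-fold (305 against 473, limma adjusted p = 0.000955) and Pigf, of the late step that adds ethanolamine phosphate, fell 1.41-fold (863 against 1220, limma adjusted p = 0.000803). Pigh, another subunit gene of the first step, rose 1.30-fold (limma adjusted p = 0.00369). Pigx, of a mannose addition step, rose 1.42-fold (limma adjusted p = 0.00938) but not without control replicate 6 (limma adjusted p = 0.0949), where 1 gene of the list rose.

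Of 36 measured genes of GPI-anchored proteins outside the family 7 rose and 6 fell, with a median of -0.01, and 3 fell without control replicate 6. Over all genes 8.03% rose and 8.56% fell. Msln, which encodes mesothelin, rose from 113 ± 14.3 (SD, n = 2) to 605 ± 55.0 (SD, n = 5, limma adjusted p = 3.7e-06). The glypican gene Gpc6 and the antiviral tether gene Bst2 rose 1.67-fold and 1.99-fold (limma adjusted p = 0.000181 and 0.00101). Cd24a, which encodes a small mucin-like surface antigen, fell 1.42-fold (5658 against 8060, limma adjusted p = 0.000192).

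Of 17 measured genes of complement and its regulators, the pathway on which Cd59a acts, 1 rose and 1 fell, with a median of -0.04. The shares over all genes were 8.03% and 8.56%, with the same median. The riser was Clu, whose product clusterin also restrains the membrane attack complex, with 4146 ± 427 (SD, n = 5) against 363 ± 15.3 (SD, n = 2). C1s1, a protease gene of the classical pathway, was dim and fell 1.19-fold, a call lost without either control (limma adjusted p = 0.0770 and 0.120).

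Several Ly6 genes respond to interferon and Lypd3, Ly6d and Slurp1 are made above the basal layer, so both programmes were set beside them. Ly6a, Ly6e, Ly6c1 and Ly6c2 had no probe set used here, so the interferon list stands beside none of these. Of 27 measured interferon response genes 6 rose and none fell by limma's test (1 at an unadjusted p below 0.05), with a median of 0.06. Over all genes 8.03% rose and 8.56% fell, with a median of -0.04. Bst2, Irf1 (0.51), B2m (0.45) and Oasl2 (0.35) were those with the smallest p. On leaving out control replicate 5 or silenced replicate 4 the risers numbered 2, on leaving out silenced replicate 7 they numbered 3, and on leaving out control replicate 6 only Bst2 passed, so 1 rose.

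Of 24 measured suprabasal differentiation genes 11 rose and 5 fell, beside 8.03% and 8.56% of all genes. Their median was 0.37, beside -0.04 for all genes. The periplakin gene Ppl rose 1.85-fold and the filaggrin gene Flg 1.98-fold, as Slurp1 did. The involucrin gene Ivl and the secreted keratinocyte gene Krtdap fell 2.81-fold and 1.50-fold, as Lypd3 did. The risers numbered 5 on leaving out control replicate 6, 6 on leaving out silenced replicate 2 or 7, and 7 on leaving out silenced replicate 4.

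The genes whose 7 values were most like those of each called member were found by the root mean square distance between log2 values centred on each gene's mean. These distances describe 7 arrays and mainly follow the difference between the groups. Nearest to Psca were Spns2 (0.19), Msln (0.28) and Klk6 (0.29), where the median gene lay at 1.17. Klk6 shared the spread of Psca, with 4056 ± 928 (SD, n = 5) against 1179 ± 751 (SD, n = 2). Nearest to Plaur were Plpp1, Ets1 and Lif, at 0.04 to 0.05. Nearest to Slurp1 were Grb7, Tfcp2l1 and Ccdc12, at 0.04 to 0.05, and nearest to Lypd3 were Gsto1, Oplah and Limk2, at 0.05 to 0.06. For Cd59a they were Kmt2a, Fstl3 and Sirpa, at 0.02, but the median gene lay at only 0.12, so most genes lie close to this flat profile.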

How the data were processed

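Total RNA was extracted with Trizol and hybridised as biotinylated cRNA to Affymetrix arrays, per the labels' protocols. The deposited table holds linear intensities for 7 arrays; summarisation and normalisation by the authors are not given in the sources used here. Array medians of log2 values lay within 0.04, so no rescaling was done. Of 22690 probe sets, 64 controls were left out. Log2(intensity + 16) was fitted with limma 3.58.1 (R 4.3.3; eBayes with trend) over all 7 arrays, with Benjamini-Hochberg adjustment over 22626 probe sets. Lists used the brightest probe set of a gene; 20380 probe sets had 1 symbol, 691 several and 1555 none. No dim probe set was removed.

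The members and lists were chosen with earlier results of these data known. Named genes were all members, up to 4 passing genes of smallest p per list (2 where none passed), the 2 brightest of each marker list, measured genes of the runs, and the 3 nearest profiles per called member. Ly6g6c, Lypd1, Plau, Serpinb2, Chrnb4 and Chrna3 were named beyond this, after their values were seen. The fit was tested on simulated data with known changes. It recovered 42 of 50 changes of 0.5 on the log2 scale and all 50 at each of 1, 2 and -1, with 20 false calls. No change smaller than 0.5 was simulated, so differences as small as those of Cd59a and Ly6d were not covered. Alternatives covered scaling, pseudocount, filters, eBayes options, array weights, covariates, the probe set of a gene, and each array left out. Figures used matplotlib 3.10.9.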

Additional observations from a re-analysis of the deposited data

How the results depend on the processing

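Only 2 controls limit every value, and a left-out control leaves 1, assumed to vary like the silenced arrays. Psca, Plaur and the brightest Trp63 probe set kept direction and call under every alternative run. Quantile normalisation and median centring changed no call of the 6 genes. No paired analysis was possible because no replicate number occurs in both groups. Over all probe sets (1771 higher, 1847 lower), leaving out arrays gave 776 to 2326 higher and 598 to 3176 lower, lowest without control replicate 6. The melanocyte covariate gave 2541 higher and 2874 lower, and the melanocyte split 2563 and 2895. The lower count was 2823 with array weights, and the spike covariate gave 957 higher and 616 lower. Of the 6 genes, 2 to 3 rose and 1 to 3 fell with arrays left out, 0 fell with the spike covariate and 1 with the filter at the 50th percentile, where Cd59a was not tested. Ly6d passed with array weights (-0.48, limma adjusted p = 0.0175) and without silenced replicate 1 (-0.43, limma adjusted p = 0.0401). Its difference was -0.29 under the spike covariate (limma adjusted p = 0.441).

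With arrays left out, counts ran from 1 to 3 lower for the other family genes, 0 to 1 higher and 0 to 3 lower for the urokinase system, 1 to 3 lower for the partners of Lypd3 and Slurp1, 1 to 3 higher for anchor synthesis, 3 to 8 lower for other GPI-anchored proteins, 0 to 2 lower for complement, 1 to 8 higher and 0 to 1 lower for interferon, and 5 to 13 higher for differentiation. With the spike covariate they were 0 lower (urokinase), 1 lower (partners), 1 higher (anchor synthesis), 3 lower (other GPI-anchored), 0 lower (complement), 1 higher (interferon) and 5 higher (differentiation). The melanocyte covariate and split each gave 2 higher and 2 lower other family genes and 1 higher urokinase gene. The filter at the 50th percentile gave 1 lower (urokinase), 0 lower (complement) and 3 higher (interferon). Array weights gave 2 lower (other family), 1 higher (urokinase), 2 lower (complement) and 1 lower (interferon). The partners had 1 lower without the trend and 1 with robust estimation, interferon had 1 lower without the trend, and the smallest p for a gene gave 1 higher urokinase gene. The causes were not tested.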
